A study of Mus musculus with 12 samples.

Results

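A group of 10 interleukin genes of the response to bacterial lipopolysaccharide (LPS) was followed in m6A peak lists from BV2, a mouse microglial line that was immortalised. They are Il1a, Il1b, Il1rn, Il6, Il12b, Il18, Il23a, Il27, Lif and Osm, and they were found by gene name among the peaks. Of these 10 genes, 8 had at least 1 peak, giving 15 peaks of 36682 in the wild-type (WT) list and 12 of 41153 in the Mettl3 knockout (KO) list. Both groups were BV2 cells under LPS, with the genotype WT or Mettl3 KO, and each comprised 3 immunoprecipitated (IP) and 3 input libraries, 12 in all. The sources used here do not give the LPS dose and time or whether the KO cells came from 1 clone, and untreated cells were not analysed here. Each genotype is represented by 1 list, so no value below has a replicate error, and no test between the genotypes was possible. The enrichments (log2 of IP over input, 1 value per peak) and the adjusted p-values printed beside them are the authors' own. Sequencing depth is unknown here, and peak lists hold no expression level with which to check the loss of Mettl3.

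m6A is a methyl mark on adenosines within messenger RNA, written by a complex around METTL3 and found most often near the stop codon and in the 3' untranslated region (UTR), where reader proteins can alter the stability and translation of the transcript. Interleukins are secreted signals. Microglia that sense LPS through Toll-like receptors switch many of them on, and their mRNAs are typically short-lived. The genes fall into the IL-1 family (Il1a, Il1b and Il18, with the receptor blocker Il1rn), the IL-6 family, which signals through the shared receptor chain Il6st (Il6, Lif and Osm), and the IL-12 family, whose cytokines are pairs of subunits (Il12b, Il23a and Il27).

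The letters of the peaks themselves were not analysed here, since no genome sequence was used. What could be read was the promoter, where LPS signalling meets these genes, and the series text singles out BATF, a factor that pairs with Jun proteins on AP-1 sites. RefSeq promoter windows of build GRCm38.p6, from 250 bases before to 50 after the transcript start, held 7 of the 10 genes; Il23a, Il27 and Osm had no entry. The AP-1 motif TGANTCA, which reads the same on both strands, was present in windows of 4 of these 7 genes and of 8.97% of all 27025 genes in the table. The NF-kB consensus motif, searched on both strands, was present in 2 of the 7 and in 9.55% of all genes. A gene was counted if any of its windows matched, and Il1rn had 3 windows. By window, AP-1 was present in 4 of 9, against 7.81% of all 32851 windows, and NF-kB in 2 of 9, against 8.46%. The matches are printed below from 5' to 3' on the gene's strand, with the motif in capitals, and none overlaps another motif that was searched; the Il6 AP-1 match lies at the edge of its window and the Il1a match next to the transcript start, so both are shown with fewer flanking letters.
Il1a, AP-1, chr2:129309973-129309994, minus strand: cagagaagccTGACTCAgactt
Il1rn, AP-1, chr2:24336709-24336735, plus strand: tctgctagacTGAGTCAcgcctctgga
Il6, AP-1, chr5:30012864-30012881, plus strand: cTGAGTCActtttaaaga
Il6, NF-kB, chr5:30013060-30013089, plus strand: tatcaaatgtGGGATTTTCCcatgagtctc
Lif, AP-1, chr11:4257330-4257356, plus strand: cagtcagctgTGACTCAggccatagtg
Lif, NF-kB, chr11:4257380-4257409, plus strand: atcaagtacaGGGACGCCCCctccccacac
In Il1a the AP-1 match began 12 bases before the transcript start, and in Il6 the NF-kB match began 44 bases before it. These matches are a description of letters and no measure of binding.

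The first question was which of the genes carried a peak. In the WT list 8 did, and in the KO list 6 did. Peaks of Il6 and Il1a were listed for WT alone, whereas 7.44% of all 14078 genes with a peak in either list were WT-only. No member was KO-only, against 5.03% of all genes. Il12b and Il27 had no peak in either list. No peak of any gene lay over the RefSeq position of Il12b. The position of Il27 was touched over 100 bases by a peak in each list that was named for Apobr, a lipoprotein receptor gene, with WT at a log2 of 1.39 and KO at 1.13. IP over input was measured in bulk RNA and input levels were not analysed here, so where a peak is missing, less methylation and less transcript cannot be told apart, nor can fewer cells with the transcript and less of it per cell.

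The enrichments were mostly modest. Across the 15 WT peaks the log2 ran from 0.36 to 2.47 with a median of 0.87, close to the median of 0.83 over all WT peaks. Across the 12 KO peaks it ran from 0.59 to 2.11 with a median of 1.06, above the 0.70 of all KO peaks. Only Lif reached 4-fold, with 2 peaks in each list (11.7% of all WT peaks and 3.93% of all KO peaks did so). In the WT list 13 of 15 peaks were annotated as 3' UTR, against 53.0% of all WT peaks, and the other 2 as 5' UTR. Among the 13 was the Osm peak, which spanned the whole gene. In the KO list 7 of 12 were 3' UTR, against 51.4% of all, with 3 in 5' UTRs and 2 in coding exons. The last base of the gene was also the last base of 6 WT peaks and 3 KO peaks, against 17.7% and 16.0% of all peaks. Of the WT peaks 8 of 15 overlapped a KO peak on the same strand by at least 1 base (77.2% of all WT peaks did), and of the KO peaks 9 of 12 overlapped a WT peak (72.9% of all).

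**Figure D1:**
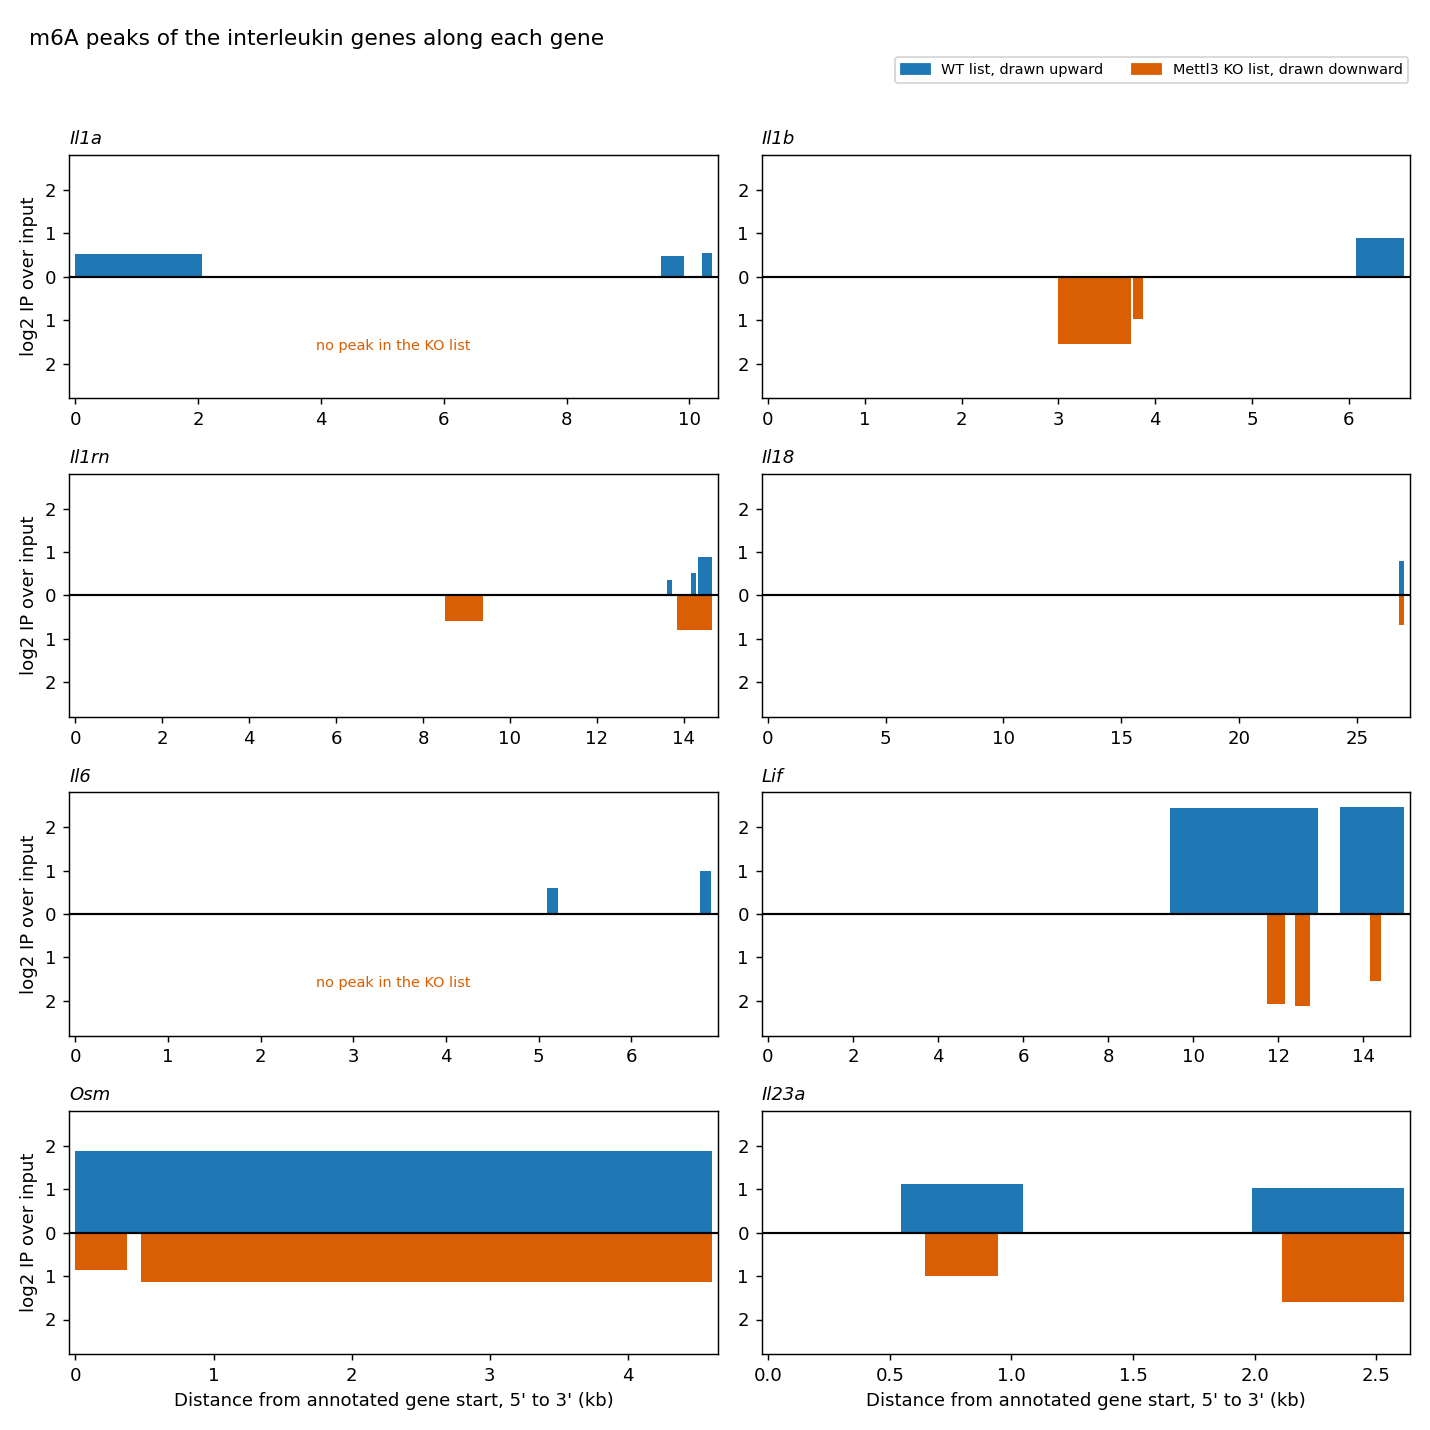
Peaks of the 8 interleukin genes with a peak, drawn along each gene from its annotated start (x axis, kb, introns included). Bar width is the peak's span and bar height the log2 of IP over input, upward for the WT list and downward for the KO list; most WT bars stand at the right-hand, 3' end, and Il1a and Il6 have none below the line.

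Among the IL-1 agonists, Il1a had peaks in the WT list alone and Il1b had its peaks at other places in KO. Il1a encodes a cytokine that is active as made and is often released from damaged cells. It carried 3 WT peaks on the minus strand of chromosome 2. The 5' UTR peak, from 129307915 to 129309972, began at the gene start and had a log2 of 0.53 (adjusted p = 4.0e-06). The 3' UTR peaks had a log2 of 0.49 from 129300060 to 129300434 (adjusted p = 1.45e-09) and of 0.55 from 129299610 to 129299759 (adjusted p = 9.99e-07), the latter reaching the gene end. All 3 were weak, since the strongest lay at the 1.60th percentile of strongest peaks over all genes of the WT list. They were also weak for genes with peaks in WT only, at the 1.86th percentile, although just 73 of those 1047 genes (6.97%) carried 3 or more peaks. The KO list did hold peaks of this size: 11978 of its peaks had a log2 no higher than that of Il1a's strongest, and its lowest value was 0.14.

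Il1b, the main secreted agonist, which must be cut by caspase-1, lies 54597 bases from Il1a on the same strand of chromosome 2. Its only WT peak was in the 3' UTR, from 129364570 to 129365069 and up to the gene end, with a log2 of 0.90 (1.87-fold, adjusted p = 5.34e-31). The KO list had no 3' UTR peak of Il1b. It had instead 2 peaks annotated as coding exon, from 129367396 to 129368141 with a log2 of 1.55 (2.94-fold, adjusted p = 0.000497) and from 129367271 to 129367370 with a log2 of 0.98 (adjusted p = 0.0125). The nearer of these ended 2701 bases before the gene end, and no base was shared between the lists. Peaks in both lists with no shared base were found in 1.23% of the 12323 genes with peaks in both, and Il1b was 1 of them. The strongest value was higher in KO by 0.65, and 1.97% of genes had a difference as high or higher. These 2 values come from different stretches of the transcript.

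Il1rn encodes the receptor antagonist that blocks both IL-1 agonists. In the WT list it had 3 separate 3' UTR peaks on chromosome 2, with a log2 of 0.36 from 24350460 to 24350584, of 0.50 from 24351010 to 24351134 and of 0.87 from 24351185 to 24351494. The value of 0.36 was at the 0.345th percentile of all WT peaks, yet its adjusted p was 6.8e-56. In the KO list 1 peak of 785 bases, from 24350710 to the same last base 24351494, covered the latter 2 of these with a log2 of 0.80 (adjusted p = 2.52e-19). The first WT peak had no KO partner. A further KO peak lay at 24345356 to 24346226, which is annotated as 5' UTR, and its log2 was 0.59; it had no WT partner. The strongest values differed by -0.08 (KO minus WT), and the covered length was 560 bases in WT and 1656 in KO.

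Il18, whose product induces interferon-gamma and is also matured by caspase-1, had 1 peak in each list at nearly the same place. This peak lay at the 3' end of the gene on chromosome 9 in both lists, from 50581610 to 50581834 in WT and from 50581635 to the same last base in KO. Its log2 was 0.80 for WT (adjusted p = 2.2e-05) and 0.69 for KO (adjusted p = 6.07e-05). Both values were low among genes, at the 14.5th percentile of strongest peaks in WT and the 10.5th in KO.

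In the IL-6 family, Il6 and Lif stood at opposite ends. Il6, a central inflammatory cytokine, had 2 WT peaks of 125 bases each, both annotated as 3' UTR, on chromosome 5. The stronger, from 30019854 to 30019978, ended 3 bases before the gene end, with a log2 of 0.99 (1.99-fold, adjusted p = 0.00376). The other, from 30018204 to 30018328, ended 1653 bases before the gene end and had a log2 of 0.61 (adjusted p = 0.00152). Its 3' UTR annotation was on a different transcript of Il6 from that of the stronger peak. These were the 2 largest adjusted p-values among the WT peaks of the 8 genes, and 77.3% of WT-only genes had a smallest adjusted p at or below that of Il6. At an adjusted p of at most 0.001 Il6 had no peak in either list, and Il1a alone remained WT-only.

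Lif, which acts on stem cells, neurons and glia, carried the strongest peaks of the group. In WT, 2 long 3' UTR peaks on chromosome 11 spanned 4267018 to 4270489, with a log2 of 2.44 (5.41-fold, adjusted p = 9.41e-215), and 4271015 to 4272514, with a log2 of 2.47 (5.53-fold, adjusted p = 7.25e-172). In KO, 3 short peaks lay wholly inside them, from 4269290 to 4269714 with a log2 of 2.08 (4.23-fold), from 4269940 to 4270289 with 2.11 (4.33-fold) and from 4271715 to 4271964 with 1.54 (2.91-fold). The covered length was 4972 bases in WT and 1025 in KO, a ratio of 0.206 at the 5.10th percentile of genes with peaks in both lists, whose median ratio was 1.01. The strongest values differed by -0.35 (KO minus WT), at the 42.5th percentile of differences. Lif was thus near the middle of all genes in this difference and near the low end in its ratio of covered length. Among the strongest peaks of all genes, Lif ranked at the 83.0th percentile in WT and the 90.5th in KO.

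Osm, which encodes oncostatin M, lies 16530 bases from Lif on the same strand. Its WT peak covered the whole annotated gene, 4236420 to 4241026, introns included, with a log2 of 1.89 (3.70-fold) and an adjusted p listed at 0. In KO the gene was still covered to 97.8%, but in 2 peaks, from 4236420 to 4236794 with a log2 of 0.87 (annotated 5' UTR) and from 4236895 to 4241026 with 1.13 (2.19-fold, 3' UTR, adjusted p = 4.19e-77). The strongest values differed by -0.75 (KO minus WT), at the 19.4th percentile of all genes, and this was the most negative difference of the 6 genes with peaks in both lists. A WT peak as long as the gene gives no position within it, although this peak was annotated as 3' UTR.

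Among the members of the group in the IL-12 family, peaks were listed for Il23a only. Il23a encodes the subunit that makes IL-23 when joined to the Il12b product, and Il12b itself had no peak. Both Il23a peaks were at the same places on chromosome 10 in both lists, each KO peak lying inside its WT counterpart. The 3' UTR peak, which reached the gene end, had a log2 of 1.03 for WT (128296139 to 128296763, adjusted p = 1.02e-10) and of 1.60 for KO (128296139 to 128296638, 3.03-fold, adjusted p = 9.64e-09). The 5' UTR peak went the other way, with 1.12 in WT (128297706 to 128298205) and 0.99 in KO (128297806 to 128298105, adjusted p = 0.0101). The strongest value was thus the 5' UTR peak in WT and the 3' UTR peak in KO. It was higher in KO by 0.48, and 3.12% of genes had a difference as high or higher.

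Taking the strongest peak of each gene, 4 of the 6 genes with peaks in both lists were lower in KO (Il1rn, Il18, Lif and Osm), against 73.4% of all such genes, and Il1b and Il23a were higher. Their median difference was -0.09, beside -0.25 (interquartile range -0.64 to 0.02) over all 12323 genes. Measured from that shift of all genes, 2 of the 6 were lower (Lif and Osm) and Il1rn and Il18 turned to the higher side. The 6 genes therefore had no common direction.

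**Figure D2:**
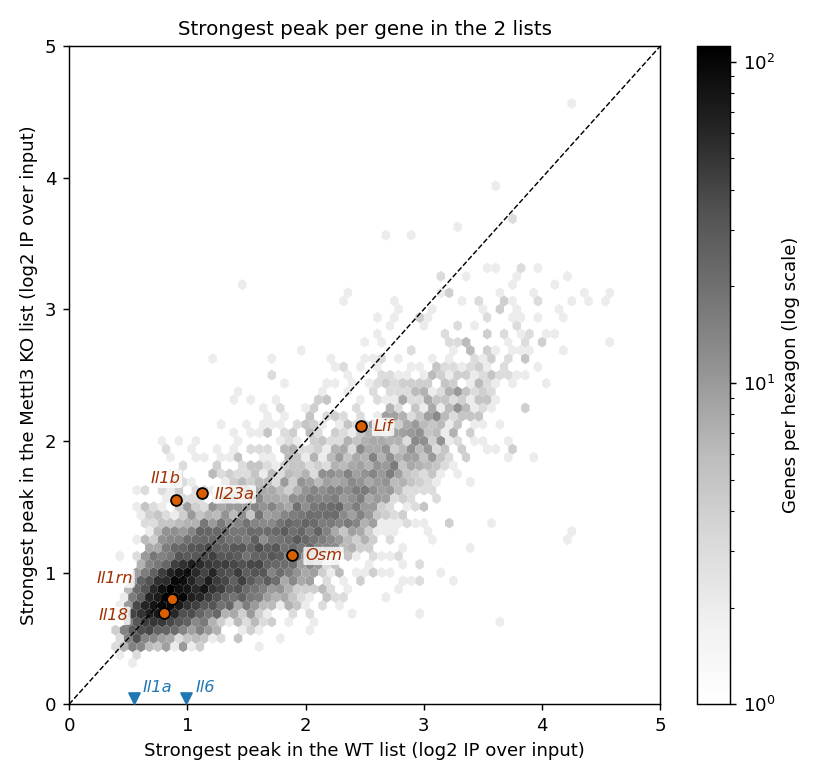
Strongest peak per gene, with the log2 of IP over input in the WT list on the x axis and in the KO list on the y axis. Grey hexagons count all genes with a peak in both lists (41 genes lie beyond the axis limit of 5), orange points are the 6 interleukin genes in both lists, blue triangles on the lower edge are Il1a and Il6 at their WT value, and the dashed line marks equal values; Il1b and Il23a lie above the line, Lif and Osm below it, and Il1rn and Il18 close to it.

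The smallest adjusted p-values moved in the same direction for these genes, unlike the enrichments, but by widely differing amounts. For all 6 genes with peaks in both lists the smallest adjusted p was larger, that is weaker, in KO, against 61.3% of all such genes. In that share a gene with equal values, such as 0 in both lists, counted as not larger, and none of the 6 was such a gene. For Lif it was 9.41e-215 in WT and 6.86e-08 in KO, the widest gap of the 5 genes that could be compared. The -log10 of its adjusted p in KO was 0.0335 of that in WT, at the 0.117th percentile of the 9860 genes with no value listed at 0, whose median was 0.732. Il1b kept 0.109 (1.76th percentile) and Il1rn 0.316 (16.5th), whereas Il18 kept 0.905 and Il23a 0.802, both above the median. Osm cannot be placed, because its WT value was listed at 0. A p-value of this kind reflects read number and peak length as well as fold. The covered length was shorter in KO for 4 of the 6 genes (43.2% of all genes). As KO over WT it was 0.206 for Lif, 0.711 for Il23a, 0.889 for Il18 and 0.978 for Osm, but 1.69 for Il1b and 2.96 for Il1rn. The parts of read number and peak length in these p-values were not tested. The measure was chosen after its values were seen.

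**Figure D3:**
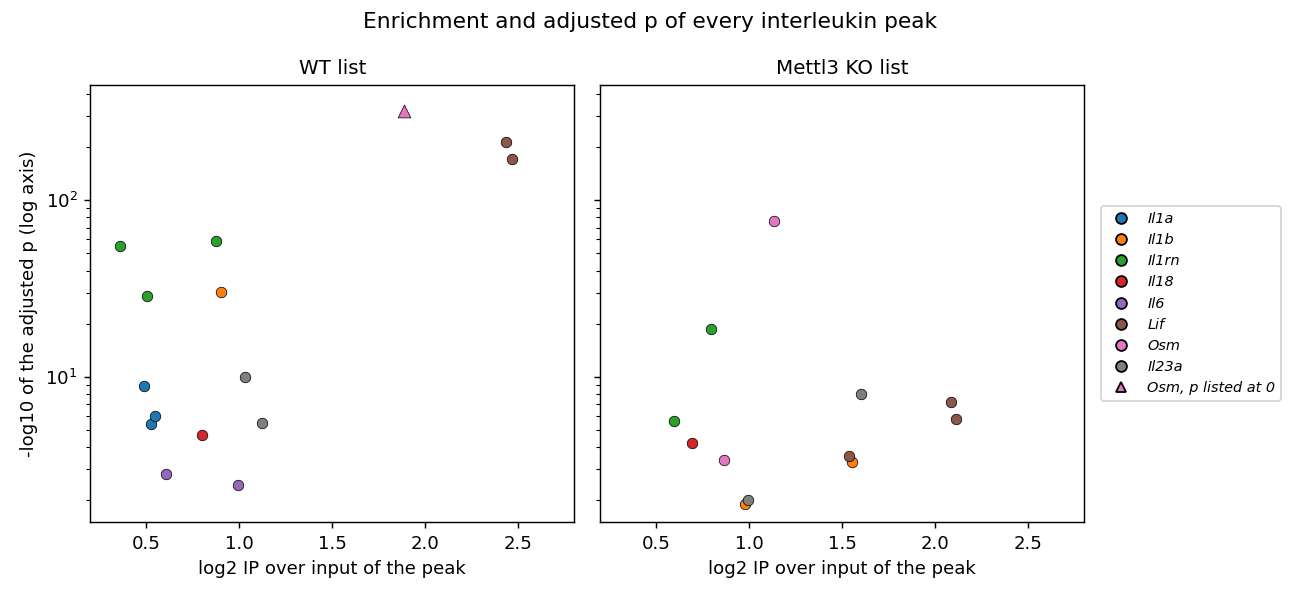
Every interleukin peak, with the log2 of IP over input on the x axis and the -log10 of the deposited adjusted p on a log y axis, for the WT list (left) and the KO list (right). Colours are genes and the triangle is the Osm peak whose p is listed at 0, placed at the top; the 2 Lif peaks stand above 100 in WT at log2 values of 2.44 and 2.47, and the 3 Lif peaks below 10 in KO at 1.54 to 2.11.

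Receptors were described from a list of 16 receptor and decoy genes, which is not limited to those that bind the cytokines of the group. Peaks were listed for 10 in both lists, and for all 10 the strongest value was lower in KO, against 73.4% of all genes, with a median difference of -0.45 beside the -0.25 of all genes. Il6ra was lower by less than 0.01. Measured from the shift of all genes, 8 of the 10 were lower, and 8 of the 10 were lower by the mean over each gene's peaks. Il1r1, the signalling receptor for both IL-1 agonists, stood at 3.36 in WT and 2.36 in KO. Il12rb1, shared by the IL-12 and IL-23 receptors, stood at 2.70 and 1.34. Il6ra, which binds IL-6, stood at 2.65 in both, and Il6st, the chain shared by Il6, Lif and Osm signalling, at 2.58 and 2.00. Il18bp, a secreted decoy for IL-18, had peaks in KO only (1.43), and Lifr, Osmr, Il23r, Il27ra and Il18r1 had none in either list.

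Genes that mature IL-1 family proteins, together with the co-receptor Il1rap, had peaks in both lists for 7 of 8, Pycard being without. Of these 7, 5 were lower in KO, a share near the 73.4% of all genes, and 2 were lower when measured from the shift of all genes. Casp8 stood at 1.91 in WT and 2.07 in KO, Casp4, which senses intracellular LPS, at 1.51 and 0.67, the inflammasome sensor Nlrp3 at 1.43 and 1.06, and Il1rap at 1.18 and 1.0. All 10 listed regulators of interleukin mRNA had peaks in both lists, with 6 lower in KO, against 73.4% of all genes, and a median difference of -0.08. Measured from the shift of all genes 4 of the 10 were lower, and 8 were lower by the mean over each gene's peaks. Arid5a, which protects Il6 mRNA from decay, stood at 2.60 and 1.81, and Zfp36l2, which binds AU-rich elements, at 2.41 and 1.33. The decay factor Rc3h2 was higher in KO, at 1.80 and 2.47, and its paralogue Rc3h1 stood at 1.21 and 1.09.

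Other cytokine genes, listed from the same families and from outside them, were mostly without peaks, as 10 of 16 had none in either list, Il10 and Il12a among them. Il16 stood at 1.76 in WT and 1.15 in KO. Ebi3, the partner of the Il27 product in IL-27, stood at 1.01 and 0.54, and Il34, a ligand of the receptor Csf1r, at 0.63 and 1.03. Il1f9, the gene of IL-36 gamma, had a peak in WT only (0.53), and Il15 (0.61) and Cntf (0.60) in KO only. The labelled cell type was checked in the same way. Of 10 microglial and macrophage markers 9 had peaks in both lists, P2ry12 being without. Among markers of neurons and neuroblastoma, a cell type that the protocol text names, Th, Dbh, Mycn, Gap43 and Stmn2 had none in either list, and Tubb3 had 1 peak in each, with a log2 of 0.89 for WT and 0.94 for KO. The astrocyte markers Gfap and Aqp4 had none. The oligodendrocyte marker Mbp, a myelin protein gene, had 5 peaks in WT (strongest log2 4.11) and 1 in KO (1.72). A peak shows that the RNA was present, and its absence does not show the reverse.

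**Figure D4:**
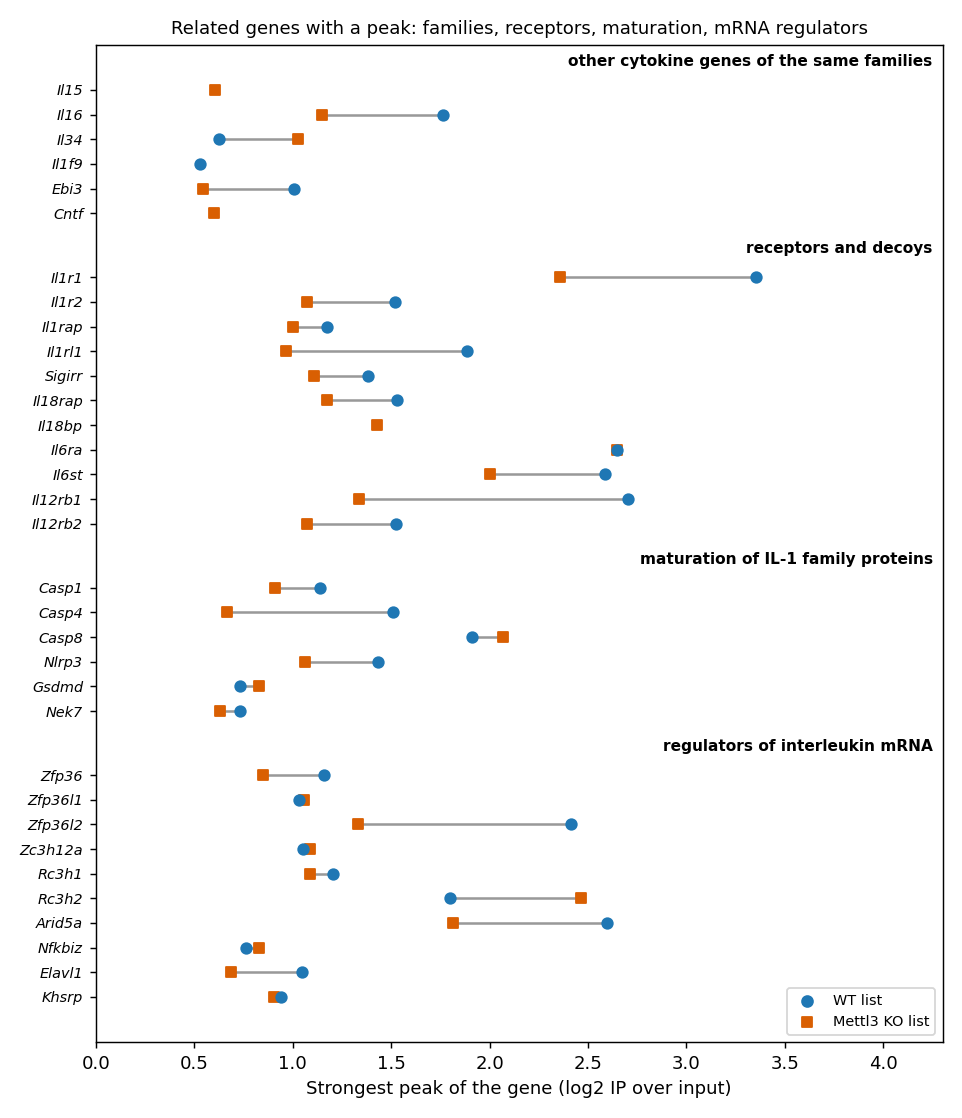
Strongest peak (x axis, log2 of IP over input) of each related gene with a peak, in 4 groups, as blue circles for the WT list and orange squares for the KO list, joined where both exist. In the receptor group the orange square lies left of the blue circle for the 10 genes with both, almost on top of it for Il6ra; the other groups hold both orders.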

How the data were processed

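The labels describe 12 libraries, 3 IP and 3 input per genotype; the values came from 2 deposited peak lists, one for each genotype. Each peak carries the authors' log2 of IP over input and adjusted p-value, columns named per the file headers. Tools in the submitters' processing notes, which give no roles, are HISAT2, StringTie, HOMER, edgeR, FastQC and fastp; the sources used here do not give the peak caller, the build or any pooling of replicates. Starts were counted from 0, so 1 was added, and spans include introns. A gene's value is its strongest peak, differences are KO minus WT, and percentiles are mid-ranks. The 8 genes with a peak overlapped their RefSeq positions in GRCm38.p6. Members and lists were chosen with earlier results of these data known. All 10 members are named; in each related list, up to 4 genes with the strongest WT peak and those with a peak in 1 list only, and others chosen after their values were seen. Il36a and Il36g were looked up as Il1f6 and Il1f9, and Il1rap is in 2 lists. Alternatives were stricter peaks, short peaks, peaks inside the gene, the mean over peaks, centring, a 50% overlap and strand ignored. Python 3.11.15 and pandas 2.3.3 were used, and the code was tested on simulated data. The results of 2 marker genes are not reported here.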

Additional observations from a re-analysis of the deposited data

How the results depend on the processing

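No paired analysis was possible because each genotype has 1 peak list with no value per library, and for the same reason no replicate could be left out. Overlap of exonic blocks was not run, since the lists were read as single spans. At 4-fold or more, Lif alone had peaks: 1 member per list, 2 peaks in each, all of them 3' UTR, 0 members WT-only, 1 WT and 2 KO peaks overlapping, and 1 member lower in KO (-0.35). At an adjusted p of at most 0.001, 1 member was WT-only, with the same median difference of -0.09. With peaks of at most 1000 bases, 2 members (Lif and Osm, whose WT peaks are longer) became KO-only, 2 of 4 members were lower in KO and the median turned to 0.20. With the mean over peaks the median turned to 0.0031 and Il1rn to 0.12. Centred on all genes the median turned to 0.15, Il1rn to 0.17 and Il18 to 0.14, and 2 members were lower. Requiring 50% of both peaks left 4 WT and 4 KO peaks overlapping. The differences of Lif, Osm, Il1b and Il23a kept their direction wherever both lists gave a value. Only the mean over peaks and centring changed these differences at all. Centring raised each of them, so it could not have reversed Il1b or Il23a. With short peaks, 6 of 7 receptors were lower in KO. The lists give no depth, so values near their lower ends, such as those of Il1a, cannot be given an error. Nor can those of Il6, whose adjusted p-values were weak although its strongest peak was at the 62.2th percentile of all WT peaks.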
